A study of Mus musculus with 16 samples.

Results

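The 34 genes described here encode enzymes of methionine metabolism, the regulatory subunit Mat2b, and Ahcyl1 and Ahcyl2, relatives of the enzyme Ahcy. Their pathway makes and uses S-adenosylmethionine, returns homocysteine to methionine, carries its sulfur to cysteine, taurine, sulfate and sulfide, and makes polyamines. They were taken by symbol from a list of names, after the Ensembl identifiers of the count table had been matched to mouse gene symbols without their version. All 34 were found among the 48709 identifiers of the table, and all 34 had enough counts to be tested in every comparison.

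In this pathway methionine adenosyltransferases join methionine to ATP to give S-adenosylmethionine (SAM), the methyl donor for DNA, proteins, phospholipids and small molecules. Methyl transfer leaves S-adenosylhomocysteine (SAH), which is split to adenosine and homocysteine. Homocysteine is methylated back to methionine, with betaine or methyltetrahydrofolate as the donor, or enters transsulfuration and becomes cysteine. The liver is known as the main site of methionine breakdown and holds enzyme forms that other tissues lack.

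The RNA came from 8 untreated females of the strain C57BL/6J, aged 3 to 6 months. The 4 groups of 4 libraries were livers of the Msr quadruple knockout (QKO), livers of wild type animals (WT), QKO hearts and WT hearts, and both tissues came from the same animals. The methionine sulfoxide reductases (Msr), which return oxidised methionine in proteins to methionine, are encoded in the mouse by Msra, Msrb1, Msrb2 and Msrb3, and how the alleles were made is not given in the sources used here. Whole tissue was flash frozen, so a lower value may reflect fewer cells of a type or less RNA per cell, and these cannot be told apart.

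Livers had 37.9 M to 67.9 M counted reads each, with 21.6 M to 40.7 M of them in protein-coding genes. Hearts had 42.1 M to 72.6 M, with 9.21 M to 28.2 M in protein-coding genes. Of the targeted genes, Msrb2 had 0 to 0.105 CPM (here scaled to the protein-coding total) in QKO livers against 6.33 to 13.9 CPM in WT livers, and 0.355 to 0.665 CPM in QKO hearts against 31.1 to 41.3 CPM in WT hearts. Msrb3 and Msra were also lower in all QKO libraries of both tissues, whereas Msrb1 overlapped between the genotypes in liver and was higher in QKO hearts, at 48.9 to 72.5 CPM, than in WT hearts, at 38.8 to 45.3 CPM. Counts cover whole genes, so a remaining count does not show which exons were read. The 8 hepatocyte markers summed to 75326 CPM or more in every liver, and the 8 cardiomyocyte markers to 43621 CPM or more in every heart. WT liver 3 and WT liver 4 held all 9 pancreatic acinar markers, at 1454 and 412 CPM in sum, against 1.38 to 4.26 CPM in the other livers, and WT liver 4 also held all 8 skeletal muscle markers, at 363 CPM. QKO liver 2 held all 8 as well, at 28.9 CPM, against 0.812 to 3.45 CPM in the remaining livers. Nuclear ribosomal RNA loci took 0.207% of all counts in QKO heart 4 and 5.14% in WT heart 4, and 21.7% to 39.3% in the other hearts.

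For 27 of the 34 genes a promoter window of 300 bases, 250 before and 50 after the annotated start, was taken from RefSeq on GRCm38.p6, and Mat1a, Nnmt, Cth, Cdo1, Tst, Srm and Adi1 had none. The windows of 4 genes are shown because the results turn on them. Gnmt had the highest mean liver level per base of exon, and Mat2a was lower in liver than in heart. Mtr had the smallest p in QKO hearts, and the Dmgdh window is shared with its neighbour Bhmt2. Capitals mark CpG dinucleotides, and each sequence runs 5′ to 3′ on the strand of the gene. The windows are chr17:46729116-46729415 on the minus strand for Gnmt, chr6:72439507-72439806 on the minus strand for Mat2a, chr13:12258064-12258363 on the minus strand for Mtr and chr13:93674186-93674485 on the plus strand for Dmgdh.
Gnmt: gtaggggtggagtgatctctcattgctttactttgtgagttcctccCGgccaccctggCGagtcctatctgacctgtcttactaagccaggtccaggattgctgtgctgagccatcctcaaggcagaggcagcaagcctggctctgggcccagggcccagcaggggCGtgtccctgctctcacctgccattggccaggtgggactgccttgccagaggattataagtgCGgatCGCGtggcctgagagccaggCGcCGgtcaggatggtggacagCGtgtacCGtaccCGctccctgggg
Mat2a: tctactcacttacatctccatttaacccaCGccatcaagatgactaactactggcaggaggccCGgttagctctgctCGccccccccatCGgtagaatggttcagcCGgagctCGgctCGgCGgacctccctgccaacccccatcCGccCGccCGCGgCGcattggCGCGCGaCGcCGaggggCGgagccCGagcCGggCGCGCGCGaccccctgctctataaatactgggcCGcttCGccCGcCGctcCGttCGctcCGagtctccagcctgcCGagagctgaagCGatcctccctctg
Mtr: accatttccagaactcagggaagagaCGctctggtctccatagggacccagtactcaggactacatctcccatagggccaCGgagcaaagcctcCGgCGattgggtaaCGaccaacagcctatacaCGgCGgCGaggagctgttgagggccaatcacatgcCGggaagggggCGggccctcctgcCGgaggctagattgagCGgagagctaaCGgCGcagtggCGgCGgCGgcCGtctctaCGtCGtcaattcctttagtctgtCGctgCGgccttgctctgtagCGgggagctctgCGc
Dmgdh: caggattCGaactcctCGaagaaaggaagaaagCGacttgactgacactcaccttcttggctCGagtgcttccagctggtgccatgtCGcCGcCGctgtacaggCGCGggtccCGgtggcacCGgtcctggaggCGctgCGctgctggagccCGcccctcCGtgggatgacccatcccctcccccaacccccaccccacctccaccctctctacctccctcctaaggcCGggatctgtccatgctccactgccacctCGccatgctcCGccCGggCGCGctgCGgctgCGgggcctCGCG
The Gnmt window held 11 CpG, the Mat2a window 34, the Mtr window 24 and the Dmgdh window 25, against a median of 7 in the 27025 windows of the table.

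A few enzymes of the pathway had very high levels in liver, and most had low levels in heart. Levels are given as RPKM, here protein-coding CPM per 1000 bases of exon, so that genes of different length can be compared. The length is that of all annotated exons joined, so ranks by RPKM depend on it. In liver the means ran from 0.982 (QKO) and 0.990 RPKM (WT) for Ahcyl2 to 1697 (QKO) and 1311 RPKM (WT) for Gnmt. In each genotype 10 members reached 100 RPKM in liver and 7 stayed under 5 RPKM. The 5 highest liver members, which were Gnmt, Mat1a, Cdo1, Bhmt and Ahcy in both genotypes, took 76.5% (QKO) and 74.5% (WT) of the summed level of all 34. In heart no member reached 100 RPKM, and the 5 highest, Amd1, Apip, Mat2a, Mat2b and Ethe1, took 49.96% (QKO) and 49.5% (WT). The lowest heart member was Cbs, at 0.190 ± 0.0909 RPKM in QKO hearts and 0.261 ± 0.193 RPKM in WT hearts (SD, n = 4 each), from 11 to 57 counts per library.

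**Figure D1:**
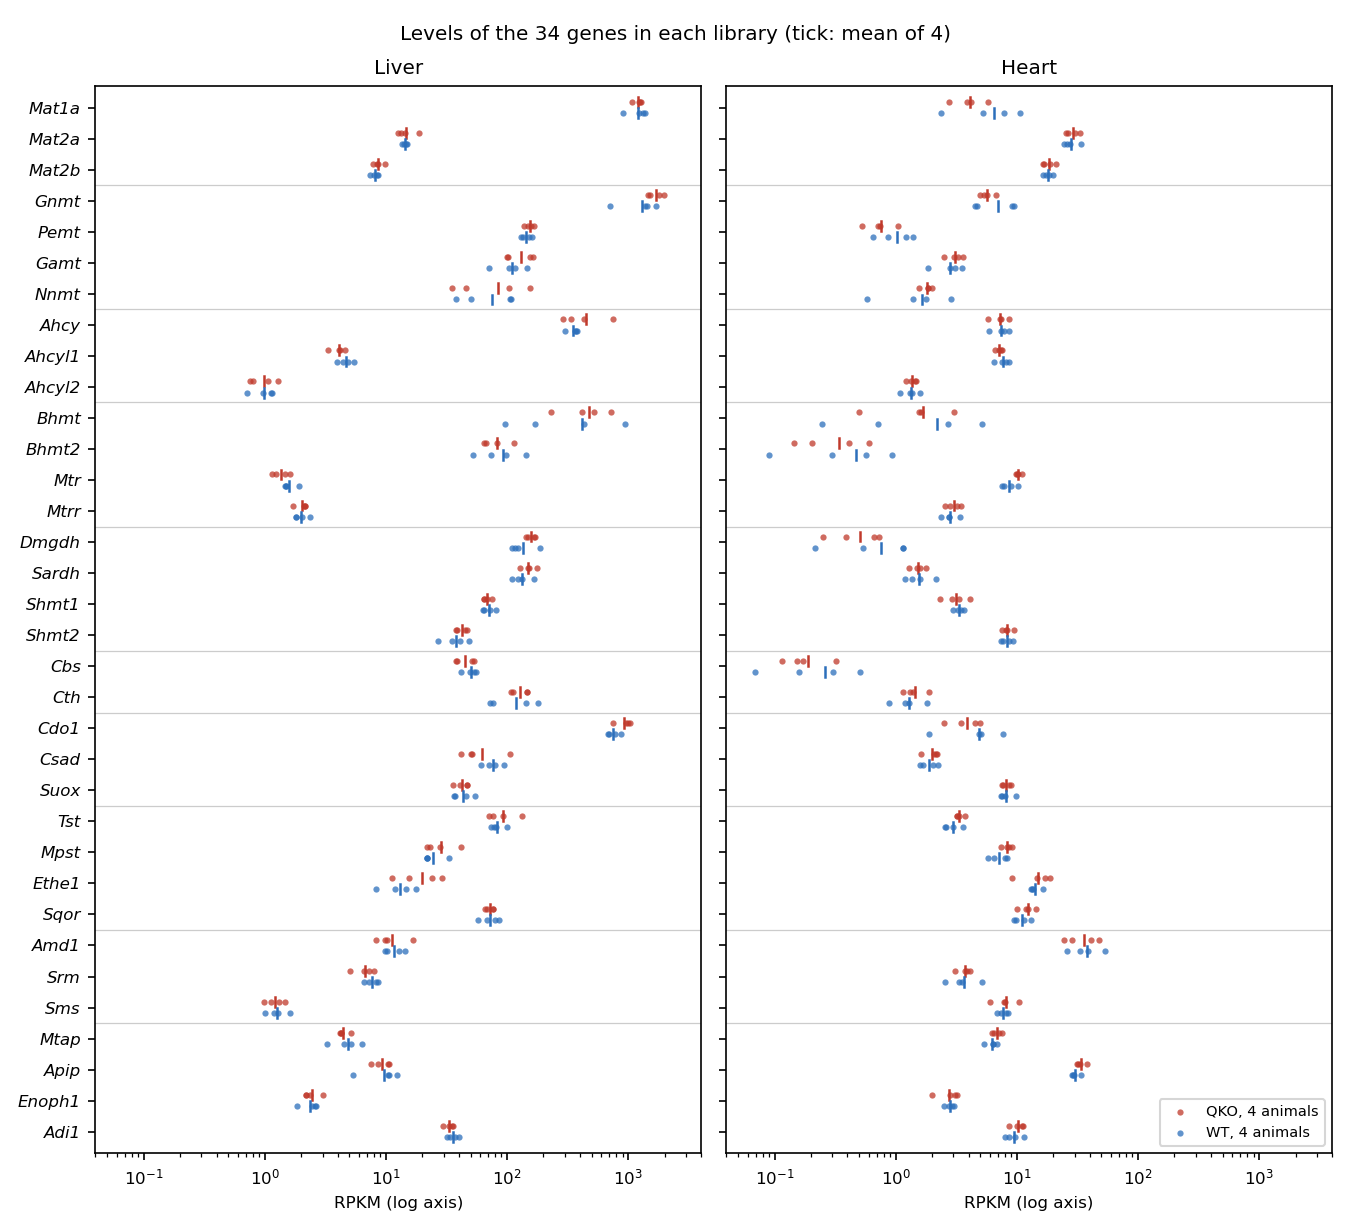
RPKM of the 34 genes in every library (points) with the mean of 4 animals (ticks), on a log axis, with QKO above WT in each row and lines between functional groups. Liver levels reach past 1000 RPKM for Gnmt and Mat1a, whereas the highest heart mean is 35.6 RPKM in QKO and 37.7 RPKM in WT, for Amd1.

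The 3 genes of SAM synthesis divided between the tissues. Mat1a (ENSMUSG00000037798.6, chromosome 14, 41105035 to 41124412 on GRCm38) encodes the methionine adenosyltransferase of adult liver. Mat1a had 1236, 1068, 1288 and 1253 RPKM in QKO livers 1 to 4, against 1339, 1374, 1221 and 913 RPKM in WT livers. In hearts it had 5.73, 4.22, 3.85 and 2.77 RPKM in QKO animals, against 10.7, 7.79, 5.31 and 2.37 RPKM in WT animals. The genotypes overlapped in both tissues, and every liver was far above every heart. Mat2a (ENSMUSG00000053907.10), the form of most other tissues, ran the other way. It had 14.4, 18.9, 12.5 and 13.3 RPKM in QKO livers and 14.8, 13.5, 14.1 and 14.97 RPKM in WT livers, against 30.0, 33.4, 25.7 and 26.5 RPKM in QKO hearts and 26.1, 27.6, 24.8 and 33.96 RPKM in WT hearts. Mat2b, the regulatory subunit that binds the Mat2a enzyme, was lower in liver too, at 7.44 to 9.93 RPKM over the 8 livers, against 16.5, 18.7, 16.9 and 21.05 RPKM in QKO hearts and 18.3, 17.4, 16.5 and 19.8 RPKM in WT hearts. As a share of Mat1a plus Mat2a, Mat1a made up 98.8% ± 0.353 in QKO livers and 98.8% ± 0.282 in WT livers. In hearts the share was 12.4% ± 2.82 in QKO animals and 18.8% ± 9.44 in WT animals (SD, n = 4 each).

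**Figure D2:**
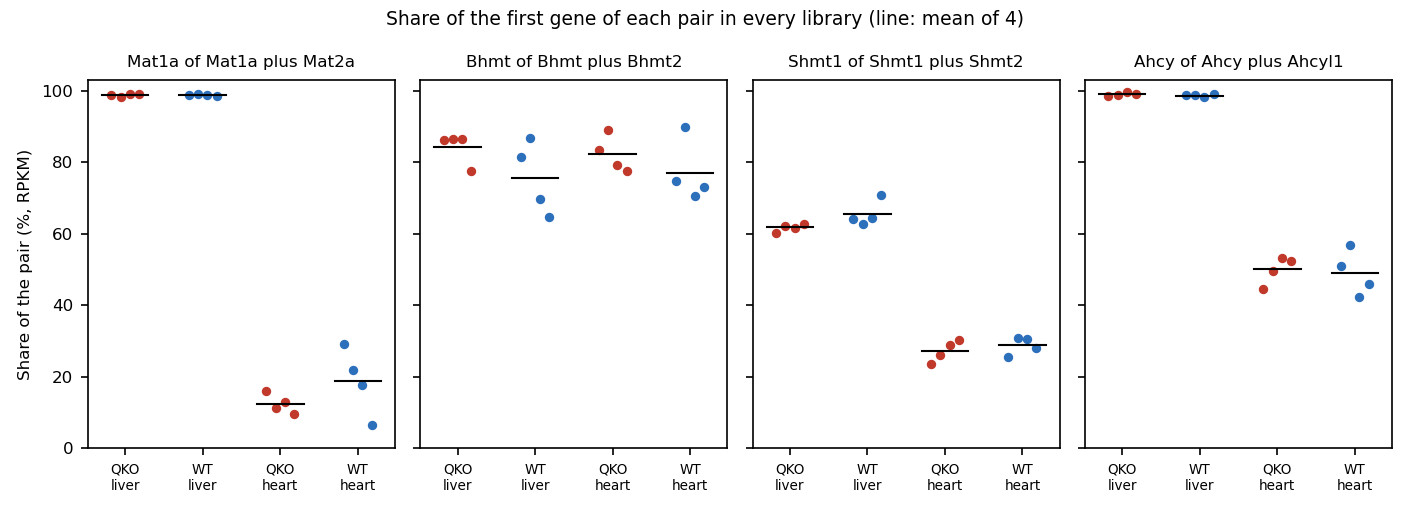
Share in percent of the first gene of 4 related pairs in each library, from RPKM, with a line at the mean of 4. Mat1a and Ahcy take nearly all of their pair in every liver and much less in every heart, while Bhmt takes 64.6% to 90.0% of its pair in both tissues.

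The SAM-using methyltransferases were all higher in liver. Gnmt (ENSMUSG00000002769.8, chromosome 17, 46725664 to 46729168), which methylates glycine to sarcosine and disposes of surplus SAM, had 1463, 1529, 1987 and 1808 RPKM in QKO livers, against 1389, 1440.5, 710.3 and 1706 RPKM in WT livers. WT liver 3 stood below the other 7, and the genotypes overlapped. In hearts Gnmt had 4.96 to 6.79 RPKM in QKO animals and 4.48 to 9.56 RPKM in WT animals. Pemt, which makes phosphatidylcholine from phosphatidylethanolamine, averaged 153 ± 13.1 RPKM in QKO livers and 144 ± 14.1 RPKM in WT livers, against 0.757 ± 0.218 RPKM in QKO hearts and 1.03 ± 0.332 RPKM in WT hearts (SD, n = 4 each). Gamt, the last enzyme of creatine synthesis, averaged 130.4 ± 34.1 RPKM in QKO livers and 109.7 ± 31.5 RPKM in WT livers. Nnmt, which methylates nicotinamide, was the most variable member in QKO livers, with a coefficient of variation of 65.1% and values of 35.4 to 154 RPKM, against 38.2 to 108 RPKM in WT livers.

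Ahcy (ENSMUSG00000027597.15), which hydrolyses SAH, had 291, 335, 748 and 436 RPKM in QKO livers, against 373, 363, 300.2 and 376 RPKM in WT livers. QKO liver 3 was the highest of the 8, and the genotypes overlapped. In hearts Ahcy had 5.74, 7.26, 8.58 and 7.36 RPKM in QKO animals and 7.89, 8.55, 5.94 and 7.38 RPKM in WT animals. Ahcyl1, a relative known as a partner of the inositol trisphosphate receptor, had 4.62, 4.09, 3.34 and 4.21 RPKM in QKO livers and 4.91, 4.41, 5.50 and 3.98 RPKM in WT livers. Its heart values lay above all of these, at 7.12, 7.39, 7.50 and 6.65 RPKM in QKO animals and 7.55, 6.49, 8.07 and 8.64 RPKM in WT animals. Ahcy thus made up 99.0% ± 0.471 (QKO) and 98.7% ± 0.326 (WT) of the pair in liver, and 50.01% ± 3.95 (QKO) and 49.1% ± 6.28 (WT) in heart (SD, n = 4 each). Ahcyl2, the other relative, was the lowest member in liver, with 0.761, 1.07, 0.805 and 1.29 RPKM in QKO livers and 0.97497, 0.713, 1.15 and 1.12 RPKM in WT livers. Its hearts were close by, at 1.22, 1.44, 1.34 and 1.48 RPKM in QKO animals and 1.36, 1.08, 1.32 and 1.58 RPKM in WT animals. Of the stretches of 75 bases in the Ahcy exons, 62.5% recur in the related gene Gm4737 and 24.2% in the pseudogene Gm9826, which had at most 0.212% and 1.53% of the Ahcy count in any liver. Whether reads that fit several of these genes were left out of the Ahcy count was not tested.

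The betaine-dependent arm of homocysteine remethylation varied widely between animals. Bhmt (ENSMUSG00000074768.5, chromosome 13, 93616675 to 93637961), which takes the methyl group from betaine, had 724, 415, 526 and 232 RPKM in QKO livers, against 435, 949, 171 and 95.8 RPKM in WT livers. The WT values covered the whole QKO range, with a coefficient of variation of 43.4% in QKO livers and 93.6% in WT livers. In hearts Bhmt had 3.02, 1.63, 1.57 and 0.4997 RPKM in QKO animals and 2.72, 5.13, 0.715 and 0.245 RPKM in WT animals, and the WT hearts stood in the same order as the livers of the same animals. Bhmt2, which uses S-methylmethionine as the donor, had 115, 64.4, 81.9 and 67.0 RPKM in QKO livers and 98.2, 143, 74.4 and 52.4 RPKM in WT livers. WT animals 2 and 4 again gave the highest and the lowest liver value. In hearts Bhmt2 had 0.597, 0.202, 0.414 and 0.144 RPKM in QKO animals and 0.924, 0.572, 0.297 and 0.0904 RPKM in WT animals, from 6 to 34 counts per library. Mtr, methionine synthase, uses methyltetrahydrofolate and cobalamin and averaged 1.37 ± 0.220 RPKM in QKO livers and 1.59 ± 0.213 RPKM in WT livers, against 10.3 ± 0.572 RPKM in QKO hearts and 8.61 ± 1.22 RPKM in WT hearts. Mtrr, the reductase that keeps Mtr active, averaged 2.03 ± 0.214 (QKO) and 2.00 ± 0.249 RPKM (WT) in liver, against 3.02 ± 0.410 (QKO) and 2.83 ± 0.429 RPKM (WT) in heart (SD, n = 4 each).

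The enzymes that pass on methyl groups of choline and carbon of serine were higher in liver as well. Dmgdh, which oxidises the dimethylglycine left by Bhmt, had 144 to 171 RPKM in QKO livers and 110.1 to 188 RPKM in WT livers, and under 1.15 RPKM in every heart. Sardh, which oxidises the sarcosine made by Gnmt, had 127 to 176 RPKM in QKO livers and 109.1 to 168 RPKM in WT livers. Shmt1, the cytosolic serine hydroxymethyltransferase, had 68.8, 64.3, 74.7 and 64.1 RPKM in QKO livers and 72.4, 81.9, 63.6 and 64.9 RPKM in WT livers, against 2.32, 2.89, 3.34 and 4.13 RPKM in QKO hearts and 2.99, 3.44, 3.25 and 3.65 RPKM in WT hearts. Its mitochondrial counterpart Shmt2 had 45.3, 39.0, 46.5 and 37.9 RPKM in QKO livers and 40.5, 48.5, 35.0 and 26.8 RPKM in WT livers, against 7.55, 8.16, 8.25 and 9.51 RPKM in QKO hearts and 8.65, 7.71, 7.39 and 9.29 RPKM in WT hearts. Smcr8, which shares 184 exon bases with Shmt1 on the opposite strand, had 270% to 353% of the Shmt1 count in heart. The shared bases are 2.28% of the Smcr8 exon bases. How many Smcr8 reads fell in them was not tested, so the heart level of Shmt1 is uncertain to that extent. Shmt1 was the larger of the pair in liver, at 61.8% ± 1.09 in QKO and 65.6% ± 3.58 in WT animals, and the smaller in heart, at 27.2% ± 2.98 in QKO and 28.8% ± 2.41 in WT animals (SD, n = 4 each).

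Transsulfuration and the use of cysteine were mostly at liver levels. Cbs, which condenses homocysteine with serine, had 37.8 to 53.1 RPKM in QKO livers and 41.3 to 55.9 RPKM in WT livers. Cth, which releases cysteine, had 107.6 to 146 RPKM in QKO livers and 73.0 to 179 RPKM in WT livers, against 1.15 to 1.89 RPKM in QKO hearts and 0.886 to 1.80 RPKM in WT hearts. Cdo1 (ENSMUSG00000033022.7), cysteine dioxygenase, which commits cysteine to taurine and sulfate, had 992, 1030.5, 955 and 748 RPKM in QKO livers and 680.2, 878, 775 and 692 RPKM in WT livers. It was the third highest member in liver by mean RPKM and had 1.90 to 7.63 RPKM in hearts. Csad, which makes hypotaurine, averaged 62.2 ± 29.1 RPKM in QKO livers and 76.5 ± 14.3 RPKM in WT livers, and Suox, sulfite oxidase, averaged 42.5 ± 5.11 RPKM in QKO livers and 43.6 ± 8.46 RPKM in WT livers (SD, n = 4 each). Csad shares 278 exon bases with Zfp740 on the opposite strand, which had 385% to 768% of the Csad count in heart. The shared bases are 5.46% of the Zfp740 exon bases. Whether reads were split by strand was not given, and how many Zfp740 reads fell there was not tested. The heart level of Csad is uncertain to that extent.

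The enzymes of sulfide and sulfane sulfur were at higher heart levels than those of transsulfuration. Tst, rhodanese, had 70.6 to 133 RPKM in QKO livers and 73.2 to 99.2 RPKM in WT livers, against 3.20 to 3.71 RPKM in QKO hearts and 2.57 to 3.62 RPKM in WT hearts. Mpst, mercaptopyruvate sulfurtransferase, averaged 28.6 ± 9.09 (QKO) and 24.7 ± 5.77 RPKM (WT) in liver, against 8.35 ± 0.737 (QKO) and 7.11 ± 1.21 RPKM (WT) in heart. Sqor, which oxidises sulfide at the mitochondrial membrane, averaged 71.8 ± 5.42 (QKO) and 72.9 ± 12.5 RPKM (WT) in liver, against 12.3 ± 1.84 (QKO) and 10.9 ± 1.63 RPKM (WT) in heart (SD, n = 4 each). Ethe1, the persulfide dioxygenase, had heart levels of 31.6% to 199.9% of the liver level of the same animal. It had 28.9, 23.8, 15.6 and 11.3 RPKM in QKO livers and 14.6, 17.9, 11.8 and 8.29 RPKM in WT livers, against 9.11, 17.03, 14.8 and 18.9 RPKM in QKO hearts and 13.6, 13.3, 13.02 and 16.6 RPKM in WT hearts.

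Amd1 of polyamine synthesis and Apip of methionine salvage held the highest mean heart RPKM of the 34 genes. The other genes of these groups stood below Mat2a, Mat2b and Ethe1 in heart RPKM. Apip has the shortest exon length of the 34, 1000 bases. In CPM with TMM scaling, not divided by length, Apip averaged 8.52 in QKO and 7.92 in WT hearts, below Mat2a at 33.0 and 32.6. Amd1 (ENSMUSG00000075232.4), which decarboxylates SAM for polyamine synthesis, had 24.6, 28.3, 41.3 and 48.05 RPKM in QKO hearts and 33.2, 25.9, 38.8 and 53.1 RPKM in WT hearts, against 8.34 to 16.7 RPKM in QKO livers and 9.75 to 14.3 RPKM in WT livers. Apip (ENSMUSG00000010911.12), a dehydratase of methionine salvage, had 31.2, 33.5, 32.2 and 37.6 RPKM in QKO hearts and 29.9, 29.2, 28.7 and 34.2 RPKM in WT hearts, against 7.61 to 10.6 RPKM in QKO livers and 5.36 to 12.5 RPKM in WT livers. Amd1 varied among animals, with a coefficient of variation of 30.9% in QKO and 30.5% in WT hearts, and Apip little, with 8.42% in QKO and 8.24% in WT hearts. Sms, spermine synthase, averaged 1.22 ± 0.204 (QKO) and 1.27 ± 0.249 RPKM (WT) in liver, against 8.11 ± 1.82 (QKO) and 7.76 ± 0.746 RPKM (WT) in heart. Srm, spermidine synthase, was the member of its group that was higher in liver, at 6.71 ± 1.26 (QKO) and 7.67 ± 0.930 RPKM (WT), against 3.72 ± 0.451 (QKO) and 3.66 ± 1.10 RPKM (WT) in heart. Adi1, which re-forms the precursor of methionine, averaged 33.4 ± 2.70 (QKO) and 36.0 ± 3.59 RPKM (WT) in liver and 10.3 ± 1.26 (QKO) and 9.403 ± 1.47 RPKM (WT) in heart (SD, n = 4 each). Mtap, which splits the methylthioadenosine left by polyamine synthesis, stayed between 3.25 and 7.50 RPKM in all 16 libraries, and Enoph1, the enolase-phosphatase of salvage, between 1.85 and 3.20 RPKM. Of the Amd1 exon stretches of 75 bases, 70.4% recur in Amd2, which had at most 0.422% of the Amd1 count in any library. Whether reads that fit both genes were left out of the Amd1 count was not tested.

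The design implies a comparison of liver with heart within each genotype, which was tested with edgeR's quasi-likelihood test after TMM scaling, a trimmed mean of log ratios between libraries, with Benjamini-Hochberg adjustment over all genes. The fit uses library sizes adjusted by TMM, and RPKM uses the plain protein-coding total, so the fitted differences do not equal ratios of RPKM. In QKO animals 23 of the 34 members were higher in liver and 8 lower, where 37.1% and 37.2% of 18039 genes were called. In WT animals 22 were higher and 7 lower, where 36.9% and 35.6% of 18204 genes were called. The share of members higher in liver was therefore above that of all genes, and the share lower in liver below it. The median log2 difference, liver over heart, was 2.76 in QKO and 2.81 in WT animals for the members, and -0.01 and 0.02 for all genes. The median of all genes depends on the scaling, and was -0.20 in QKO and -0.16 in WT animals under upper-quartile scaling. Both genotypes called the same 22 members higher and the same 7 lower, with Ethe1 (0.72 on the log2 scale, SE 0.27, adjusted p = 0.0272) and Mtap (-0.32, SE 0.13, adjusted p = 0.0442) added in QKO animals. Mtap lost its call under 8 alternatives, with differences of -0.36 to -0.25, and Ethe1 under 4, with 0.35 to 0.79.

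Enzymes of several roles showed the largest differences. In QKO animals Dmgdh (8.68), Gnmt (8.51), Mat1a (8.48), Bhmt (8.44), Bhmt2 (8.39), Cbs (8.24) and Cdo1 (8.23) had log2 differences, liver over heart, above 8, with SE of 0.24 to 0.62. In WT animals Dmgdh had 7.75, Gnmt 7.79, Mat1a 7.74, Bhmt 7.79, Bhmt2 7.97, Cbs 7.85 and Cdo1 7.49, with SE of 0.47 to 1.19. Pemt (7.98 in QKO and 7.39 in WT animals), Sardh (6.92 and 6.63), Cth (6.78 and 6.78), Ahcy (6.27 and 5.80), Nnmt (5.86 and 5.73), Gamt (5.68 and 5.54), Csad (5.27 and 5.56), Tst (5.10 and 5.06) and Shmt1 (4.72 and 4.64) followed, with the QKO value and the WT value in each bracket. Sqor, Suox, Shmt2, Mpst, Adi1 and Srm were higher in liver by 1.15 to 2.97. The 7 members lower in liver were Mtr (-2.61 in QKO and -2.204 in WT animals), Sms (-2.42 and -2.39), Apip (-1.56 and -1.41), Amd1 (-1.35 and -1.45), Mat2b (-0.77 and -0.92), Mat2a (-0.68 and -0.74) and Ahcyl1 (-0.52 and -0.48). They include methionine synthase, SAM decarboxylase and, of the 3 genes of SAM synthesis, Mat2a and Mat2b but not Mat1a. Both genes of transsulfuration, 2 of 2, and those from cysteine to taurine and sulfate, 3 of 3, were higher in liver. Ahcyl2, Mtrr and Enoph1 passed the threshold in neither genotype. In RPKM, Ahcyl2 and Mtrr were higher in the heart than in the liver of all 8 animals. Their fitted differences, -0.19 (QKO) and -0.21 (WT) for Ahcyl2 and -0.28 (QKO) and -0.27 (WT) for Mtrr, had the same direction, and both passed as lower in liver under upper-quartile scaling.

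The 4 sequences printed above come from both classes. The 15 genes higher in liver that had a window held 0 to 40 CpG with a median of 13, and the 7 lower in liver held 12 to 34 with a median of 24. Of these windows, CCAAT was found on either strand in 9 of 15 and 5 of 7, GGGCGG in 7 of 15 and 6 of 7, and TATAAA in 0 of 15 and 2 of 7. Over all 27025 windows the shares were 37.9% for CCAAT, 35.9% for GGGCGG and 14.2% for TATAAA. Each motif was counted separately, so matches of different motifs may share bases, and the counts are descriptions with no test.

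The heart values of the liver enzymes were set beside 8 hepatocyte markers (Alb, Apoa1, Apoa2, Ttr, Serpina1a, Serpina3k, Fgb and Apoh) in the same animals. Heart RPKM of each gene was expressed as a percentage of the liver RPKM of the same animal. The median of the 8 markers was 0.416%, 0.354%, 0.252% and 0.206% in QKO animals 1 to 4, and 0.810%, 0.548%, 0.420% and 0.175% in WT animals 1 to 4. Bhmt had 0.417%, 0.393%, 0.299% and 0.215% in QKO animals and 0.627%, 0.540%, 0.419% and 0.256% in WT animals. Mat1a had 0.464%, 0.395%, 0.299% and 0.221% in QKO animals and 0.798%, 0.567%, 0.434% and 0.259% in WT animals. Within each genotype both put the animals in the same order as the marker median, and so did Dmgdh. Other members with low heart values did not all follow. Gnmt, Bhmt2 and Cbs kept that order in WT but not in QKO animals, Cdo1 in QKO but not in WT animals, and Pemt and Cth in neither. For some members these orders rest on few heart counts, with 6 to 16 for Bhmt2 and 11 to 32 for Cbs in QKO animals. Pemt had 14 to 44 and Dmgdh 17 to 58 counts per heart library. Whether the breaks in order exceed counting error was not tested. Bhmt, Dmgdh and Mat1a were at or below the highest marker in all 8 animals. Bhmt2, Cbs, Cdo1, Cth, Gnmt and Pemt were above it in some animals, and the other 25 members in all 8. Among those, Sardh had a median of 1.05%, Ahcy 1.98%, Shmt1 4.49%, Sqor 16.4%, Mat2a 202% and Mtr 643% of the liver level. The part that hepatocyte RNA had in the heart values of the low genes was not tested.

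**Figure D3:**
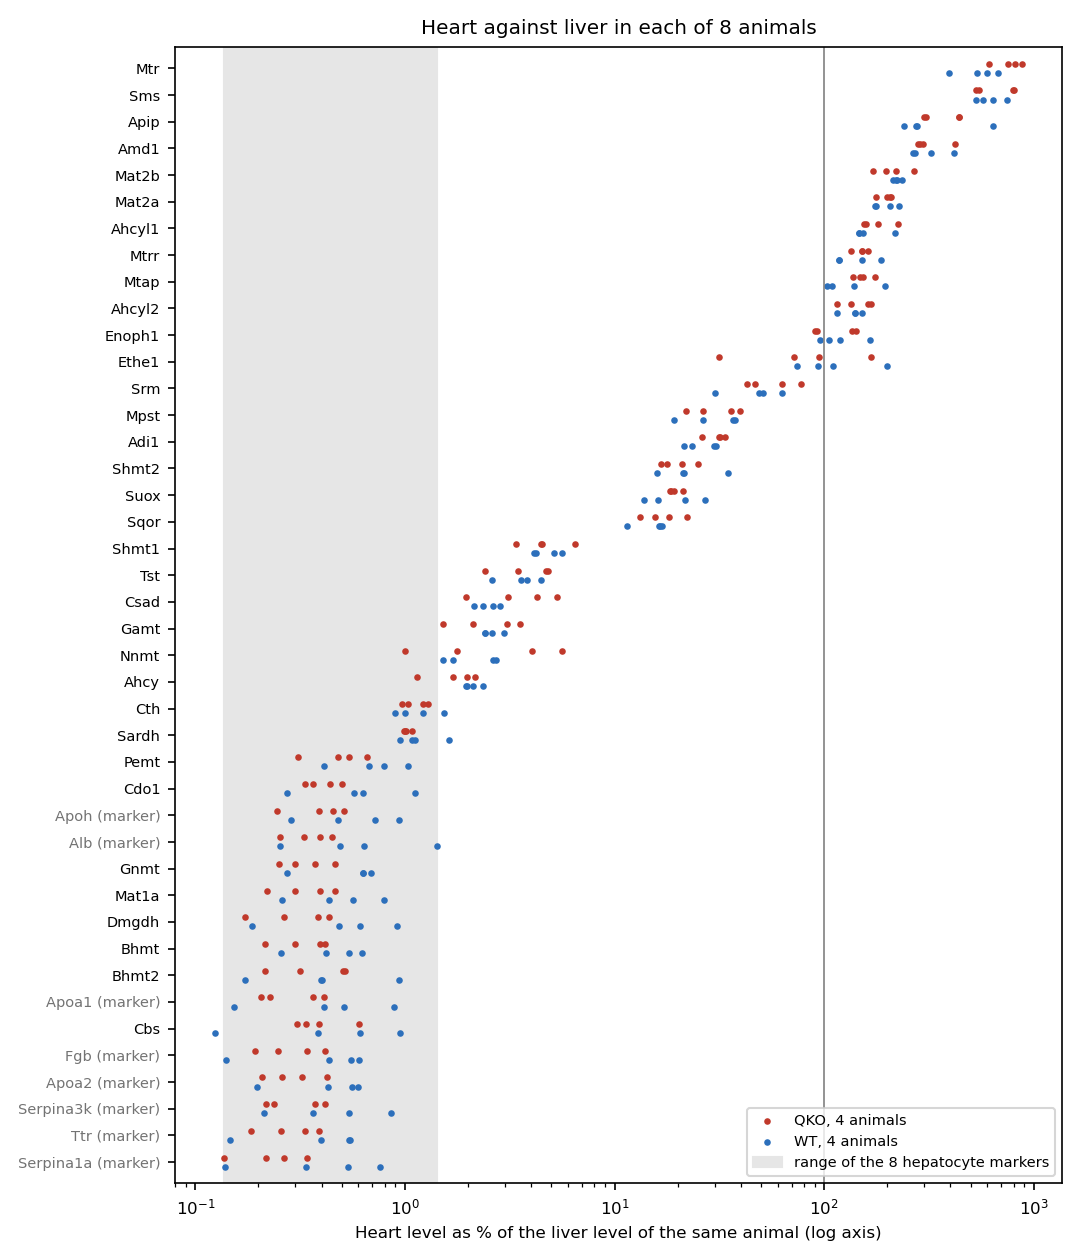
Heart level as a percentage of the liver level of the same animal for the 34 genes and 8 hepatocyte markers (grey names), on a log axis, ordered by median, with QKO above WT in each row. The grey band is the range of the markers over the 8 animals, and the line marks 100%. Bhmt, Bhmt2, Dmgdh, Mat1a, Gnmt and Cbs lie among the markers, whereas Mtr reaches a median of 643%.

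The comparison of QKO with WT asks whether loss of the enzymes that repair oxidised methionine goes with a change in the RNA of the enzymes that make and use methionine. No member passed the threshold in liver or in heart. In liver 0 of 34 members were called by edgeR's quasi-likelihood test, where 0.0846% of 17738 genes were, and 0 by DESeq2. At an unadjusted p under 0.05 there were 0 members, where 3.29% of all genes stood. The log2 changes, QKO over WT, ran from -0.24 for Csad to 0.63 for Ethe1, with SE of 0.12 to 0.61 and a median of 0.07, against -0.01 for all genes. Of the members 22 had a change above 0, against 48.8% of all genes, and the lowest adjusted p was 1.00. In 30 members the 95% interval of the change lay within 1 log2 unit of 0, and 4 intervals reached further, those of Nnmt, Ahcy, Bhmt and Ethe1. For those 4 the interval thus includes a change of 1 log2 unit.

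Full values are given for the 3 members with the smallest p in liver, in CPM on TMM library sizes. Cdo1 had 975, 999, 960.2 and 709 CPM in QKO livers, against 673, 874, 693 and 624 CPM in WT livers. The first 3 QKO livers were above all WT livers and the remaining one was not. The log2 change was 0.35 (SE 0.17, unadjusted p = 0.0646 in edgeR), and the two-sided exact permutation p over 70 relabellings of 4 against 4 was 0.0571. Ethe1 had 25.6, 20.8, 14.2 and 9.67 CPM in QKO livers, against 13.0004, 16.1, 9.56 and 6.76 CPM in WT livers. The groups overlapped, with a log2 change of 0.63 (SE 0.31, unadjusted p = 0.0668 in edgeR) and an exact permutation p of 0.200. Gnmt had 1055, 1087, 1465 and 1257 CPM in QKO livers, against 1008, 1052, 466 and 1129 CPM in WT livers. Its log2 change was 0.41 (SE 0.25, unadjusted p = 0.129 in edgeR) with an exact permutation p of 0.114, and it was 0.20 without WT liver 3. Without WT livers 3 and 4, which held acinar and adipocyte RNA, the changes were 0.24 for Cdo1, 0.27 for Ethe1 and 0.24 for Gnmt. Again 0 members were called. The lowest value of the 8 livers fell on WT liver 3 for 12 members and on WT liver 4 for 11, and the highest on QKO liver 3 for 12. How often these livers were the lowest or highest over all genes was not counted. The part of the other tissues' RNA in the liver changes was not tested.

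**Figure D4:**
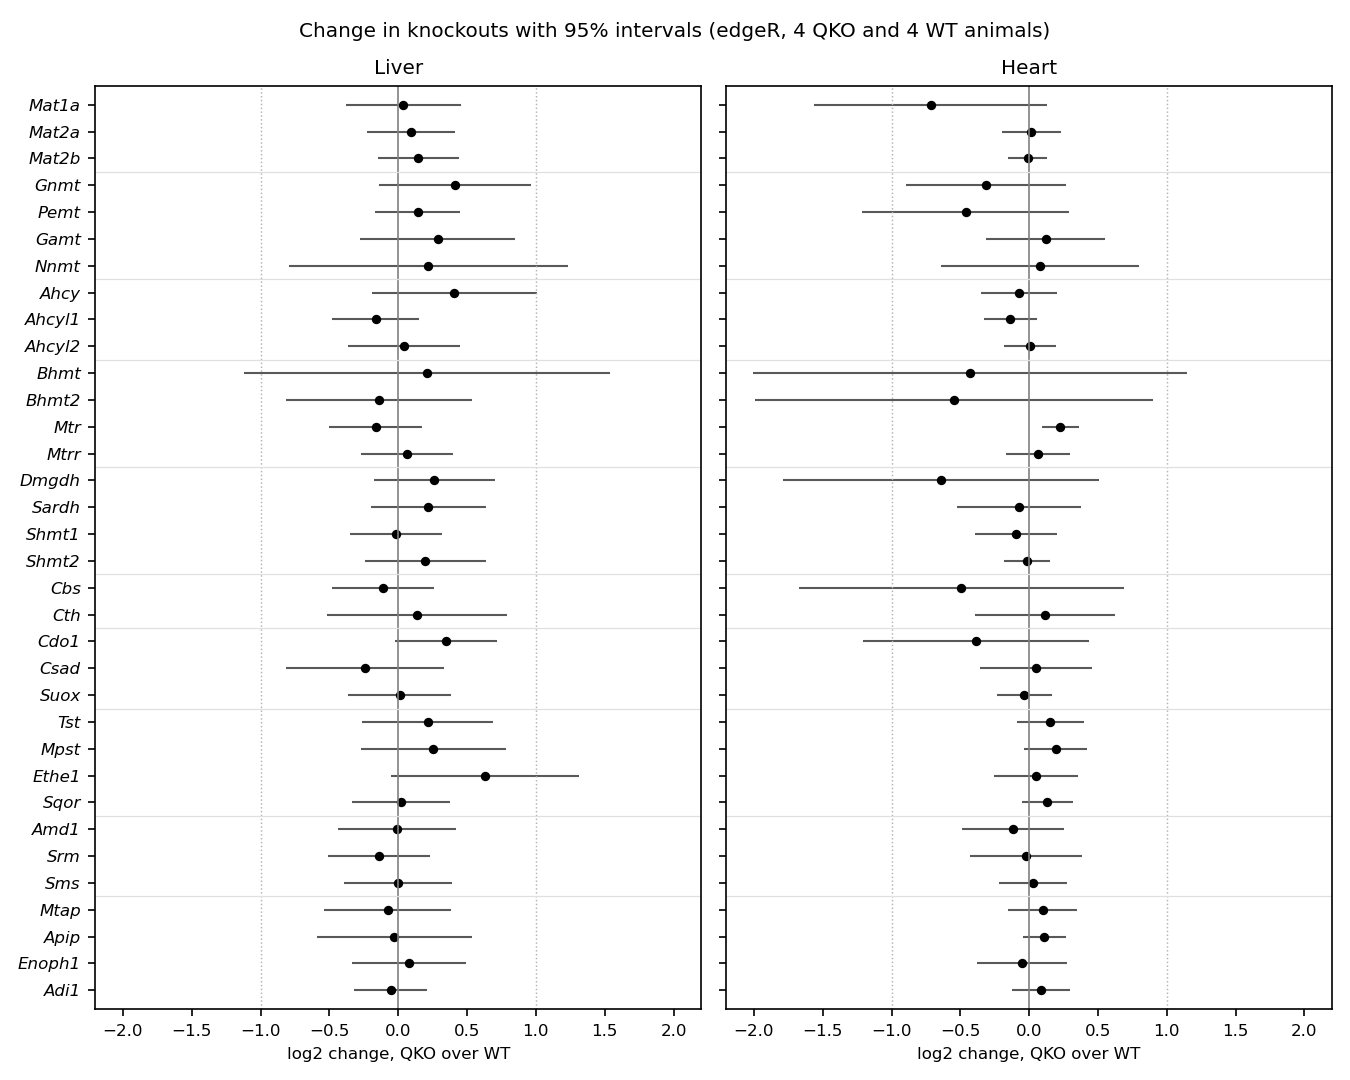
Log2 change of QKO over WT (points) with 95% intervals (lines) for the 34 genes in liver (left) and heart (right), from edgeR with 4 animals per genotype. The dotted lines mark a change of 1 log2 unit. The heart interval of Mtr, from 0.09 to 0.36, is the only one of the 68 that leaves out 0.

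In heart 0 of 34 members were called by edgeR, where 0.165% of 16974 genes were, and 0 by DESeq2. At an unadjusted p under 0.05 there was 1 member, Mtr, where 7.19% of all genes stood. The log2 changes ran from -0.72 for Mat1a to 0.23 for Mtr, with SE of 0.06 to 0.73 and a median of -0.01, against 0.00 for all genes. Of the members 16 had a change above 0, against 49.6% of all genes. In 27 members the 95% interval lay within 1 log2 unit of 0, and 7 reached further, those of Mat1a, Pemt, Bhmt, Bhmt2, Dmgdh, Cbs and Cdo1. Without WT heart 4 the number at an unadjusted p under 0.05 was 7, with a lowest adjusted p of 0.152, and still 0 were called. Without heart 4 of both genotypes, the hearts with little ribosomal RNA, it was 3, and 0 were called. The share of all genes at an unadjusted p under 0.05 was not counted without these hearts, so these numbers have no background beside them.

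Mtr (ENSMUSG00000021311.8, chromosome 13, 12182712 to 12258113 on the minus strand) had 23.4, 22.0, 21.03 and 22.5 CPM in QKO hearts, against 19.9, 18.5, 18.1 and 19.5 CPM in WT hearts, from 613 to 2670 counts per library. Every QKO heart was above every WT heart, by the smallest margin between QKO heart 3 and WT heart 1. The log2 change was 0.23 (SE 0.06, unadjusted p = 0.00263, adjusted p = 0.379 in edgeR), and the two-sided exact permutation p of 0.0286 is the smallest that 70 relabellings can give. Mtr was chosen for the permutation test by its small edgeR p in the same hearts, and the permutation p was not adjusted for the 34 members. It was the 1 member of 34 whose groups did not overlap in heart, where 4.67% of all genes did not, and in liver there were 0 members, where 2.11% of all genes did not. In RPKM, which uses the protein-coding total, the groups overlapped, with 9.91, 10.2, 9.95 and 11.1 RPKM in QKO hearts and 8.97, 7.81, 7.49 and 10.2 RPKM in WT hearts. In livers Mtr had 8.25, 6.26, 5.93 and 7.29 CPM in QKO animals and 7.67, 7.52, 8.86 and 7.05 CPM in WT animals, with a log2 change of -0.16 (SE 0.15) and overlapping groups.

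Mat1a in heart had 5.51, 3.71, 3.32 and 2.28 CPM in QKO animals, against 9.63, 7.53, 5.21 and 1.84 CPM in WT animals. The groups overlapped, with WT heart 4 the lowest of the 8. The log2 change was -0.72 (SE 0.39, unadjusted p = 0.0903 in edgeR) with an exact permutation p of 0.400, and it was -1.07 (adjusted p = 0.152) without WT heart 4. The 8 hepatocyte markers summed to 433, 316, 257 and 206 CPM of protein-coding counts in QKO hearts 1 to 4 and to 837, 538, 371 and 165 CPM in WT hearts 1 to 4, the same order of animals within each genotype. Their part in the Mat1a values was not tested. Mpst in heart had 4.39, 4.72, 4.84 and 4.19 CPM in QKO animals, against 4.58, 3.84, 3.4999 and 3.86 CPM in WT animals. The log2 change was 0.19 (SE 0.11, unadjusted p = 0.0921 in edgeR) with an exact permutation p of 0.0857, and WT heart 1 lay among the QKO hearts.

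The QKO effect was also compared between the tissues, as the interaction of genotype and tissue over all 16 libraries. It was called for 0 of 34 members, by edgeR and by DESeq2, where 0.00511% of 19587 genes were called by edgeR. At an unadjusted p under 0.05 there was 1 member, Mtr, whose heart effect minus liver effect was 0.38 (SE 0.15, unadjusted p = 0.0209, adjusted p = 1.00), where 4% of all genes stood. Without WT animal 4 there were 6 such members and again 0 calls, and the share of all genes was not counted for that setting. The interaction medians were -0.10 for the members and 0.00 for all genes.

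The values of 2 clusters of neighbouring members were set side by side across the livers. The pairs were chosen after their values were seen, so their correlations are descriptions with no test. Bhmt2 and Dmgdh are read in opposite directions from starts 131 bases apart. The start of Bhmt2 falls at base 117 of the Dmgdh window printed above, counted from 1 at its 5′ end, and the windows of both genes share 233 bases, chr13:93674253-93674485. Bhmt, in the same direction as Bhmt2, starts 36341 bases further on. Bhmt had 2491, 1410.0, 1850.4 and 772 CPM in QKO livers, against 1507, 3307, 534 and 303 CPM in WT livers. Dmgdh had 342, 343, 309 and 283 CPM in QKO livers, against 255, 389, 204 and 218 CPM in WT livers. WT liver 2 was the highest for both genes, and WT livers 3 and 4 were the lowest. Over the 8 livers the log2 values of Bhmt and Bhmt2 had a Pearson r of 0.893 and a Spearman rho of 0.881. Without the 2 livers farthest from the median of Bhmt, r was 0.876. Bhmt and Dmgdh had an r of 0.874 and a rho of 0.786, with an r of 0.690 without the 2 farthest livers. For Bhmt2 and Dmgdh, the pair with the shared window, r was 0.658, rho was 0.452, and r was 0.244 without the 2 farthest livers. These were the lowest values of the 3 pairs. Within the WT livers r was 0.886 for Bhmt2 and Dmgdh and 0.901 for Bhmt and Dmgdh. Within the QKO livers these were 0.418 and 0.748. Whether the correlations of the 3 pairs differ was not tested.

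Tst and Mpst (chromosome 15, 78399556 to 78405907 and 78406416 to 78414013) also start close together, 509 bases apart, and are read in opposite directions. Tst had 174, 132, 257 and 141 CPM in QKO livers, against 149, 190.0, 126 and 141 CPM in WT livers. Mpst had 35.7, 27.8, 54.6 and 28.4 CPM in QKO livers, against 28.2, 43.3, 25.5 and 25.6 CPM in WT livers. QKO liver 3 and WT liver 2 were the 2 highest for both genes. Over the 8 livers r was 0.9746, rho was 0.881, and r was 0.889 without the 2 farthest livers. It was the highest r among the 561 pairs of members in liver, whose median was 0.209. In hearts Tst had 2.81, 2.66, 2.52 and 2.79 CPM in QKO animals, against 2.46, 2.27, 2.33 and 2.57 CPM in WT animals. Over the 8 hearts r was 0.483 and rho 0.405, but within the QKO hearts the highest Mpst value, in heart 3, went with the lowest Tst value. The heart r depended on the scaling. With CPM of protein-coding counts r was 0.761 in heart and 0.966 in liver, and with linear CPM 0.447 and 0.981. The libraries share their tissue and their scaling, and WT livers 3 and 4 hold acinar and adipocyte RNA, whose part was not tested.

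**Figure D5:**
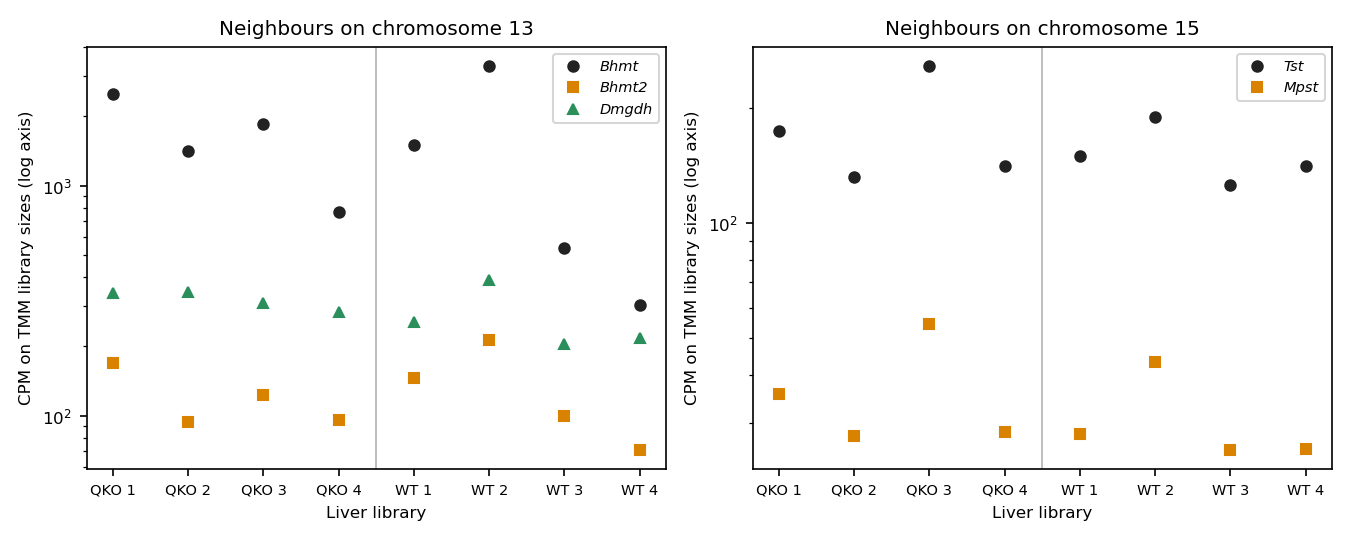
CPM on TMM library sizes (log axes) of Bhmt, Bhmt2 and Dmgdh (left) and of Tst and Mpst (right) in the 8 livers, QKO before WT. QKO liver 3 is the highest for Tst and Mpst, at 257 and 54.6 CPM, and Bhmt ranges from 303 to 3307 CPM.

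Several members overlap a gene on the opposite strand, and the strand setting of the counting is not given in the sources used here. Gm15622 had 23.4% to 24.9% of the Bhmt count in every liver while Bhmt itself ranged from 14290 to 222155 counts. AW495222 had 13.5% to 14.4% of the Dmgdh count, Sardhos 8.10% to 9.06% of the Sardh count, both in liver, and Particl 11.9% to 15.4% of the Mat2a count in liver and 12.4% to 16.6% in heart. These antisense genes share 187 exon bases with Bhmt, 215 with Dmgdh, 188 with Sardh and 508 with Mat2a. Ratios moved more for other partners, with AW495222 at 5% to 22.2% of the few Dmgdh counts in heart, and Ndufa4l2 at 15.5% to 33.9% of the Shmt2 count in heart. Smcr8 had 10.5% to 21.6% of the Shmt1 count and Zfp740 8.47% to 21.5% of the Csad count in liver. How many reads each member shares with its partner was not tested.

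Of 70 further genes of the pathway, 66 could be tested in liver and 67 in heart, and 0 passed in QKO against WT in either tissue by edgeR. At an unadjusted p under 0.05 there were 4 in liver, where 3.29% of all genes stood, and 4 in heart, where 7.19% did. In liver these were Gldc of glycine cleavage (0.45, SE 0.14, adjusted p = 1.00), the reduced folate carrier Slc19a1 (0.43, SE 0.16), the mitochondrial formyltetrahydrofolate dehydrogenase Aldh1l2 (-1.10, SE 0.48) and the amino acid carrier Slc43a1 (0.70, SE 0.30). In heart they were Gatm, the first enzyme of creatine synthesis (-0.79, SE 0.28, adjusted p = 0.660), the ornithine decarboxylase antizymes Oaz1 (0.20, SE 0.08) and Oaz2 (0.16, SE 0.07), and the tyrosine aminotransferase Tat (-1.11, SE 0.46). Between the tissues 46 of the 67 were higher and 12 lower in liver in QKO animals, and 46 higher and 13 lower in WT animals, against the shares of all genes given above. All 3 genes from choline to betaine and sarcosine passed as higher in liver in both genotypes, among them choline dehydrogenase Chdh (8.22 in QKO and 7.23 in WT animals on the log2 scale). So did all 3 genes of glutathione synthesis, with Gclc at 3.94 and 3.79. Of the 13 folate genes 8 were higher and 3 lower in liver in QKO animals, and 9 higher and 4 lower in WT animals, with Ftcd (7.999 and 7.58) and Aldh1l1 (7.73 and 7.30) highest and Aldh1l2 lowest (-3.81 and -2.48). Of the 9 genes of polyamine turnover 7 were higher in liver in both genotypes, and the spermine oxidase Smox (-1.29 and -1.9998) and Oaz2 (-1.35 and -1.22) lower.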

How the data were processed

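The deposited values are whole-number counts of reads per gene, unnormalized, which the authors made from stranded, rRNA-depleted, paired-end libraries, per the labels' protocols. The submitters' processing notes name CASAVA, bcl2fastq, FastQC, cutadapt, HISAT2, featureCounts, limma and the build mm10; versions, the annotation release and the strand setting are not given in the sources used here. Of 48709 gene identifiers, 48349 matched GENCODE M21 without version (41341 with it), and 360 did not. Gene positions and exon lengths came from that annotation on GRCm38, and promoter windows from RefSeq.

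Genes were filtered by expression per group, scaled by TMM and tested with edgeR 4.0.16 (quasi-likelihood, R 4.3.3), with Benjamini-Hochberg adjustment over all genes tested and a threshold of 0.05. QKO was compared with WT in each tissue from its 8 libraries, liver with heart in each genotype, and the interaction over all 16. RPKM used GENCODE exon length and protein-coding totals. Single values were tested by two-sided exact permutation. Alternatives were DESeq2 1.42.0, other scalings, no filter, protein-coding genes alone, replicate blocks and leaving out libraries. The test scripts were tested on simulated data. Total counts of 37.9 M or more per library leave counting error small except for the members with few counts in heart.

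The members and lists were chosen with earlier results of these data known. Every member is described; values per library are given for the 3 smallest p per tissue, 4 paralog sets and the 5 highest levels per tissue. Replicate labels give separate animals, and p-values measure the spread between them. Liver and heart share animals by label, and the deviations of the same animal correlated at 0.0144 to 0.0965. No replicate pair was a copy, the lowest chi-square per gene of 24 pairs being 26.3.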

Additional observations from a re-analysis of the deposited data

Results flagged for a closer look

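In 4 of 136 groups of 4 libraries, 1 library lay so far from the other 3 that its gap passed Dixon's critical share of the group's range, which chance does in about 1 group in 20. Cdo1 had 709 CPM in QKO liver 4, below 960.2 to 999 CPM in the other QKO livers. Csad had 241 CPM in QKO liver 1, above 93.4 to 118 CPM in the other QKO livers. Enoph1 had 4.64 CPM in QKO liver 3, above 3.22 to 3.42 CPM in the other QKO livers. Mpst had 43.3 CPM in WT liver 2, above 25.5 to 28.2 CPM in the other WT livers.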

How the results depend on the processing

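No member was called in QKO against WT under any of the 17 settings run in liver, the 17 in heart or the 15 for the interaction. Between the tissues, 22 to 23 members in QKO and 22 in WT animals were higher in liver, and 7 to 10 and 7 to 9 lower. The sign of a difference turned for Enoph1 in QKO animals (0.11) under upper-quartile scaling (-0.0784) and without QKO replicate 3 (-0.0263, the lowest on leaving out 1 replicate, with a highest of 0.218). It also turned for Enoph1 in WT animals (-0.01) with DESeq2 (0.00718), without the filter (0.0260) and on leaving out WT replicates 1 or 3 (range over the 4 replicates -0.107 to 0.116), and for Ethe1 in WT animals (0.15) under upper-quartile scaling (-0.0408) and without WT replicate 2 (-0.0638, with 0.341 the highest on leaving out 1 replicate). On protein-coding scaling 0 members, in place of 1, had QKO and WT hearts that did not overlap. Upper-quartile scaling moved the median of all genes between the tissues to -0.20 in QKO and -0.16 in WT animals, and Ahcyl2 (-0.38 and -0.40) and Mtrr (-0.47 and -0.45) then passed. In QKO animals Mtap lost its call with DESeq2, with RLE scaling, without the filter, on protein-coding genes alone and without each QKO replicate (-0.36 to -0.25), and Ethe1 under upper-quartile scaling (0.53) and without QKO replicates 1, 2 or 3 (0.35 to 0.79); the causes were not tested. Same-numbered QKO and WT animals did not deviate together in every pair (correlations of -0.0687 to 0.121 in liver and 0.00525 to 0.331 in heart), and the replicate block called 0 members in either tissue. By the animal numbers in the labels, replicates 1 and 2 of both genotypes belong to one number series and 3 and 4 to another, and what the series stand for is not given in the sources used here. With a term for the series 0 members were called, and the change was 0.23 for Mtr and -0.60 for Mat1a in heart and 0.61 for Ethe1 in liver. With the animal as a replicate block, 23 members were higher and 8 lower in liver in QKO animals, 22 and 7 in WT animals, and 0 were called for the interaction. Over all genes DESeq2 called 21 higher and 29 lower in QKO livers, in place of 10 and 5, and 29 and 35 in QKO hearts, in place of 12 and 16; without the filter the heart had 44 and 58, and with the replicate block 20 and 30. For the interaction DESeq2 called 4 higher and 9 lower, in place of 1 and 0. Counts of 6 to 57 per heart library limit what can be said of Bhmt2 and Cbs there. The same holds for Pemt, with 14 to 44 counts, and Dmgdh, with 17 to 58.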
